A study of Homo sapiens with 6 samples.

Results

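Immune checkpoint and costimulatory ligands, the genes CD274, PDCD1LG2, CD276, VTCN1, LGALS9, CD80, CD86, ICOSLG, PVR and NECTIN2, were examined in U87-MG glioblastoma cells. These 10 genes were taken by name from a table of 61731 genes and loci, by a rule that does not use their values. The set itself was named with earlier results of these data known. T cells and natural killer (NK) cells carry receptors that either restrain or help their response, and tumor cells can display the ligands of these receptors. PD-L1 (the product of CD274) and PD-L2 (PDCD1LG2) bind PD-1 and dampen activated T cells, and interferon-gamma, acting through JAK kinases and IRF1, is a well known inducer of CD274. CD80 and CD86 engage CD28 and CTLA-4, ICOSLG engages ICOS, and PVR and NECTIN2 are shared by the inhibitory receptor TIGIT and the activating receptor CD226. In glioblastoma these ligands have drawn attention as part of the means by which tumor cells escape immune attack.

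The RNA came from U87-MG, an established human glioblastoma cell line grown in culture. The 6 libraries comprised 3 of negative control cells (NC) and 3 labelled CHRM knockdown. The receptor meant is CHRM3, the M3 muscarinic acetylcholine receptor. Both groups had the U87-MG background, and the knockdown cells of the study were made by lentiviral infection. The study asked how the transcriptome of these cells differs when CHRM3 is lowered. The sources name several knockdown sequences, and the study calls 1 of them the most efficient. They do not say which of them these libraries carried, so the knockdown numbers may be replicates of 1 sequence or different sequences. The sources do not say whether cells were cultured separately for each library, so the p-values measure only the spread between these libraries, which may be technical.

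Levels are in TPM, a share of each library corrected for transcript length. The table keeps no read depth, so the depth is unknown, and between 22597 and 23311 genes had a value above 0 in each library. Of the genes that mark U87-MG, the mesenchymal gene VIM was at 6527.71 TPM or more in every library. CDKN2A, CDKN2B and MTAP, which lie in the homozygous deletion of this line, were at 0.01 TPM or less. The targeted gene CHRM3 was at 0.02, 0.09 and 0.13 TPM in controls 1 to 3 and at 0.13, 0.01 and 0.02 TPM in knockdown libraries 1 to 3 (exact two-sided permutation p = 0.8). The study reports an efficient knockdown of CHRM3 in U87-MG cells from its own assays. In these libraries the levels are too low to show whether CHRM3 RNA was reduced, and all 5 muscarinic receptor genes were at 0.17 TPM or less. The groups are therefore compared below as they were labelled.

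Of the 10 ligands, 5 were expressed well enough to test, ICOSLG was near 1 TPM in the controls and below it in the knockdown-labelled libraries, and 4 stayed at 0.14 TPM or less in every library. PDCD1LG2, CD276 and PVR fell in the knockdown-labelled libraries, by 0.29, 0.34 and 0.13 on the log2 scale, and no ligand passed the test as higher. The fall of PVR lost its call in 8 of 16 alternative analyses, while those of PDCD1LG2 and CD276 passed in all 16. CD274 was higher in each knockdown-labelled library than in any control, but its difference did not pass. ICOSLG, outside the main test for its low level, stood at 40.5% of its control mean. Since the RNA came from bulk cultures, fewer expressing cells and less RNA per cell cannot be told apart. Among the 5 tested ligands the changes were small, and none reached a log2 fold change of 1 in either direction.

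The test was limma on log2(TPM + 1), run on the 13722 genes that averaged 1 TPM or more, with Benjamini-Hochberg adjustment over all of them and a call at an adjusted p under 0.05. The fold changes are on the log2(TPM + 1) scale, which understates the change of low genes. Among all tested genes 24.0% were called lower and 12.1% higher, and 1.87% passed with a change of 1 or more in size on the log2 scale. The ligands gave 3 calls lower among the 5 tested, 0 higher, and 0 with that fold (0 ligands were higher at an unadjusted p under 0.05 either). The values of the groups did not overlap for 4 of the 5 with lower and 1 with higher levels, beside 32.8% of all tested genes for lower and 17.4% for higher. The median log2 fold change was -0.13 over the 5 tested ligands and -0.06 over all tested genes. With such a large share of genes called, the count over so few ligands says little about them as a set. Lower calls made up 66.5% of all calls on the deposited scale, 49.4% after scaling by the median of ratios and 49.96% after quantile normalization. Both scalings centre the genes by construction and put the median of all genes at 0.00, and they do not show which scale is right.

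**Figure D1:**
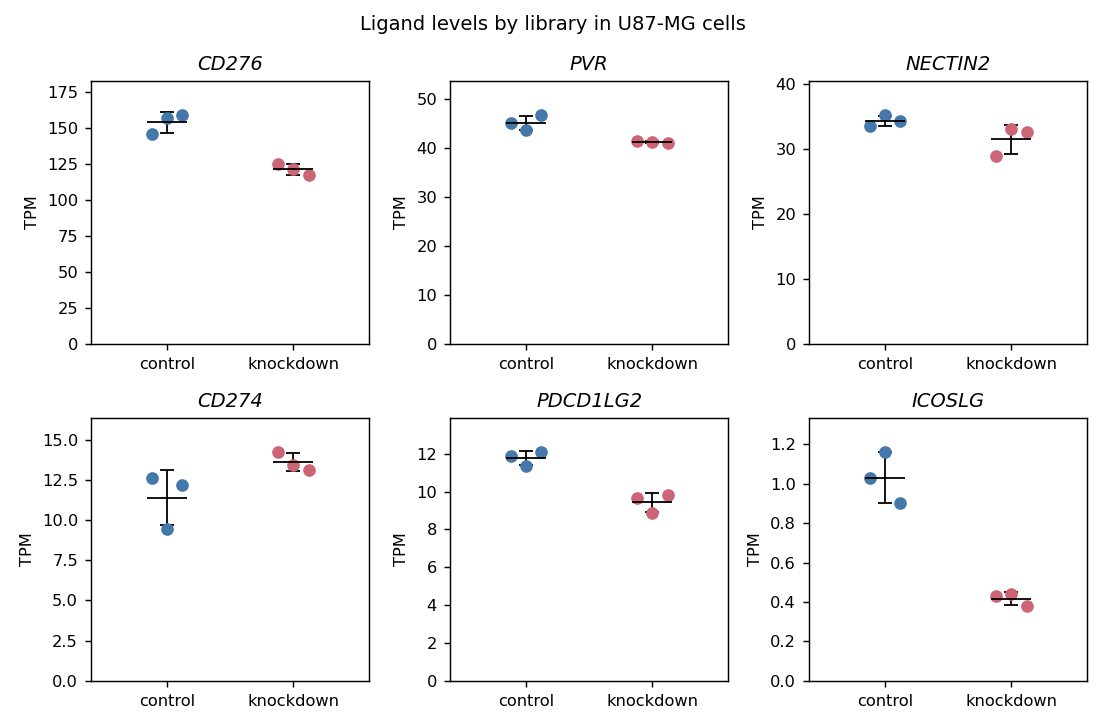
TPM of the 6 ligands with a mean above 0.5 TPM, 1 panel per gene, in 3 control and 3 knockdown-labelled libraries. Points are single libraries and the bars with whiskers are the group mean ± SD. The groups do not overlap in any of the 6 panels, with CD274 higher and the others lower in the knockdown-labelled libraries.

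CD274 encodes PD-L1 and lies on chromosome 9 from 5450503 to 5470566 on the plus strand (GRCh38). It was at 12.59, 9.43 and 12.15 TPM in controls 1 to 3 and at 14.22, 13.41 and 13.13 TPM in knockdown libraries 1 to 3. All 3 knockdown-labelled values stood above the controls, and control 2 was the lowest of the 6. The means were 11.4 ± 1.71 and 13.6 ± 0.566 TPM (SD, n = 3 each), a log2 fold change of 0.24 with an SE of 0.106 and a 95% confidence interval from -0.01 to 0.50 (limma adjusted p = 0.121). Without control 2 the log2 fold change was 0.13 (limma adjusted p = 0.170). The level of CD274 was above that of 50.1% of the tested genes, in the middle of the expressed range.

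PDCD1LG2 encodes PD-L2, the second ligand of PD-1, and lies on the same strand of chromosome 9 from 5510570 to 5571254. Its start is 40003 bases beyond the end of CD274. Its level was 11.89, 11.36 and 12.09 TPM in the controls, against 9.64, 8.85 and 9.81 TPM in the knockdown-labelled libraries. Here every knockdown-labelled value was below every control. The mean went from 11.8 ± 0.377 to 9.43 ± 0.512 TPM, and the log2 fold change was -0.29 with an SE of 0.0571 and a 95% confidence interval from -0.43 to -0.16 (limma adjusted p = 0.00871).

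The PD-1 ligands were therefore at nearly equal levels in the controls and unequal in the knockdown-labelled libraries. The ratio of CD274 to PDCD1LG2 was 1.06, 0.830 and 1.01 in the controls and 1.48, 1.52 and 1.34 in the knockdown-labelled libraries. Its mean was 0.965 ± 0.120 against 1.44 ± 0.0927, with no overlap. This ratio was chosen after its values were seen, so it is a description without a test. The summed level of the ligands was 23.2 ± 2.07 TPM in the controls, against 23.0 ± 0.803 TPM in the knockdown-labelled libraries. The groups overlapped. The difference of -0.15 TPM was 0.976 TPM after scaling by the median of ratios. With each library left out in turn it ran from -1.34 to 0.505 TPM, so its sign is not settled.

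**Figure D2:**
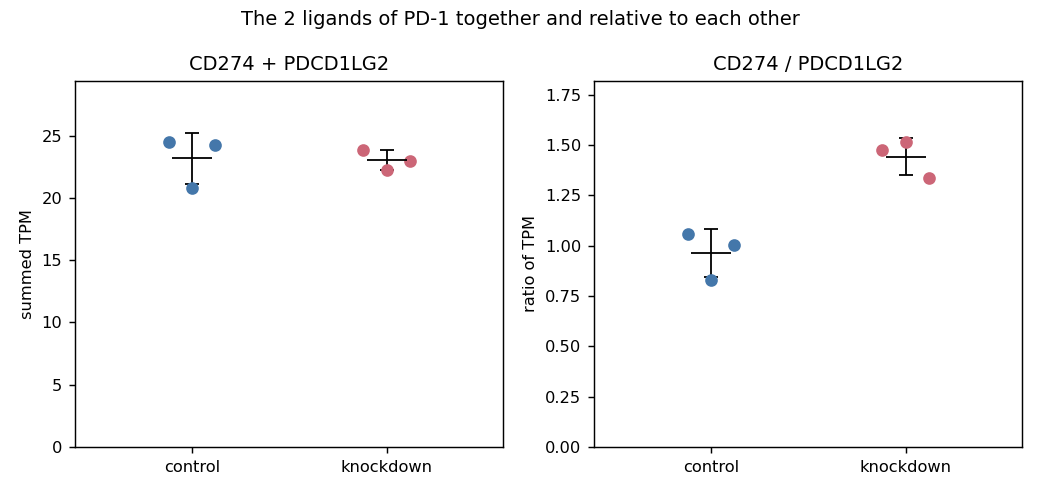
Summed TPM of CD274 and PDCD1LG2 and the ratio of CD274 to PDCD1LG2 in each of the 6 libraries, with group means ± SD. The sums of the groups overlap near 23 TPM, while the ratio lies between 0.830 and 1.06 in the controls and between 1.34 and 1.52 in the knockdown-labelled libraries.

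The genes around this pair gave the local background. The 5 protein-coding genes on each side were taken by gene order, and 5 of these 10 were high enough to test. PLGRKT, a plasminogen receptor gene next to CD274, was at 56.0, 55.6 and 56.7 TPM in the controls, against 63.79, 62.48 and 62.58 TPM in the knockdown-labelled libraries. It rose by 0.16 on the log2 scale (limma adjusted p = 0.00358) and was the 1 neighbour that passed. The other tested neighbours gave log2 fold changes of 0.04 for RIC1, 0.21 for ERMP1, 0.17 for KIAA2026 and -0.06 for RANBP6, with limma adjusted p-values of 0.746, 0.128, 0.461 and 0.529. RLN1, RLN2, INSL4, INSL6 and MLANA were at 0.34 TPM or less in every library.

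JAK2, a kinase of the interferon-gamma receptor, starts at -466.1 kb from the start of CD274. It was at 2.10, 2.05 and 2.11 TPM in the controls and at 3.8, 2.92 and 2.54 TPM in the knockdown-labelled libraries. All 3 knockdown-labelled values were higher, with a wide spread among them. The mean was 2.09 ± 0.0322 TPM against 3.09 ± 0.646 TPM, and the log2 fold change of 0.39 (SE 0.131) did not pass (limma adjusted p = 0.0583). It did pass in 4 of 15 alternatives, both scalings named above and the omission of knockdown 3 among them (limma adjusted p = 0.0388 without that library).

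**Figure D3:**
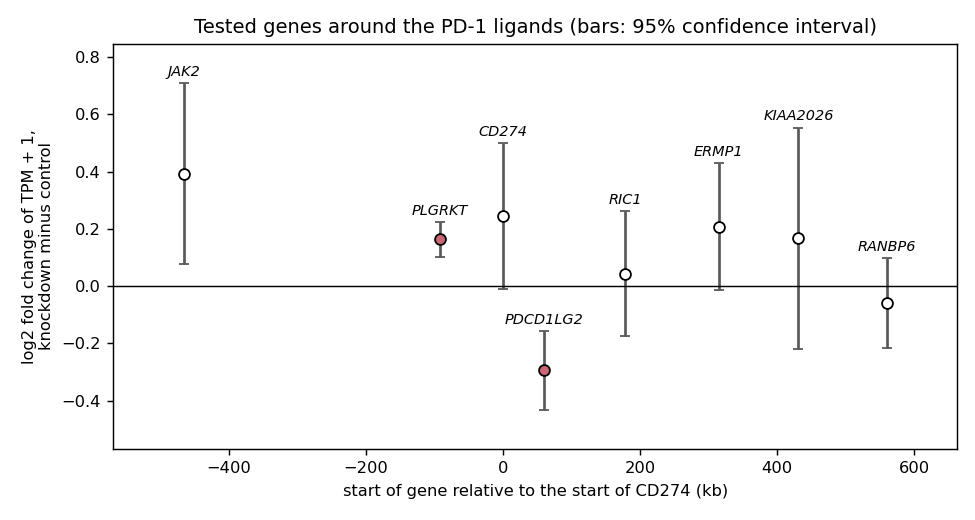
Log2 fold change, knockdown-labelled minus control on the log2(TPM + 1) scale, of the tested genes around CD274 against the distance of the gene's start from that of CD274 in kilobases. CD274 at 0.24 and PDCD1LG2 at -0.29, at 60.1 kb, lie on opposite sides of 0, and JAK2 at -466.1 kb is the highest point at 0.39.

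Interferon acts on promoters through short DNA elements, and these were looked for in front of the ligand genes. RefSeq promoter windows (GRCh38.p14) were found for 9 of the 10 ligands, all but PDCD1LG2, and the 250 bases before the start of transcription were searched on both strands. The CD274 window held 2 overlapping matches to the core of the interferon-stimulated response element (ISRE, TTTCNNTTTC), the first beginning 208 bases before the start. It also held 1 match to the gamma-activated site (GAS, TTCNNNGAA), a further element of the interferon response, 125 bases before the start. Of all 35116 windows 3.02% held the ISRE core, 6.57% held GAS and 0.31% held both. Neither element was found in the windows of the other ligands that had one. GC boxes (GGGCGG, in 42.6% of all windows) numbered 1 in the CD274 window, 4 in that of ICOSLG, 3 in that of NECTIN2 and 7 in the richer of the windows of CD276. Matches to the cyclic AMP response element (TGACGTCA, in 1.65% of windows) and to the AP-1 element (TGANTCA, in 6.57%) were found in none of the windows searched, and the NF-kB consensus (in 9.96%) was found in 1 of 2 windows of CD276 and of CD86. Overlaps between different motifs did not occur in the windows printed. The PVR window held none of these motifs. The stretches outside the annotated gene are shown for CD274, whose difference did not pass the test, since it holds the ISRE and GAS letters, and for ICOSLG as an example of a window without them. This pair was chosen after the matches were seen, and no relation between motifs and changes was tested. They are written 5′ to 3′ on the strand of the gene, chr9:5450292-5450502 on the plus strand (GC content 49.8%) and chr21:44240967-44241193 on the minus strand (GC content 78.9%). Capitals mark, from left to right, the overlapping ISRE cores, the GAS and the GC box in CD274, and the GC boxes in ICOSLG.
CD274: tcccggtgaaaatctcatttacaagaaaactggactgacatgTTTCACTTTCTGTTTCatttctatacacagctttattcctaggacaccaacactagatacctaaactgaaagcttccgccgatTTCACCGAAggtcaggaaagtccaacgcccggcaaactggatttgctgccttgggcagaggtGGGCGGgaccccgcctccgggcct
ICOSLG: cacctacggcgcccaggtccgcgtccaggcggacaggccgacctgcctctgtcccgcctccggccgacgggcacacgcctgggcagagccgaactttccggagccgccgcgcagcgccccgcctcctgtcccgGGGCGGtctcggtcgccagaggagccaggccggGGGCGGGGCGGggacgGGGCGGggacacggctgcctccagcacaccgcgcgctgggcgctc
A match is a run of letters, not a measured binding site.

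CD276 encodes B7-H3, a B7 family protein that is abundant on many solid tumors. The gene lies on chromosome 15 from 73683966 to 73714518. It was the most abundant of the ligands, above 92.3% of the tested genes, with 145.85, 157.39 and 159.06 TPM in the controls, against 125.47, 121.58 and 117.88 TPM in the knockdown-labelled libraries. Every knockdown-labelled value lay below every control. The mean fell from 154.1 ± 7.19 to 121.6 ± 3.795 TPM, or to 78.9% of the control, with a log2 fold change of -0.34 (SE 0.0414, 95% confidence interval -0.44 to -0.24, limma adjusted p = 0.00132). Of all tested genes 14.0% had a lower fold change, so the fall of CD276 was moderate among the changes in these cells. CD276 made up 59.7% ± 1.32 of the summed TPM of the 10 ligands in the controls and 55.8% ± 1.09 in the knockdown-labelled libraries. Its close relative VTCN1 (B7-H4), on chromosome 1 from 117143587 to 117210960, was listed at 0 in all 6 libraries.

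**Figure D4:**
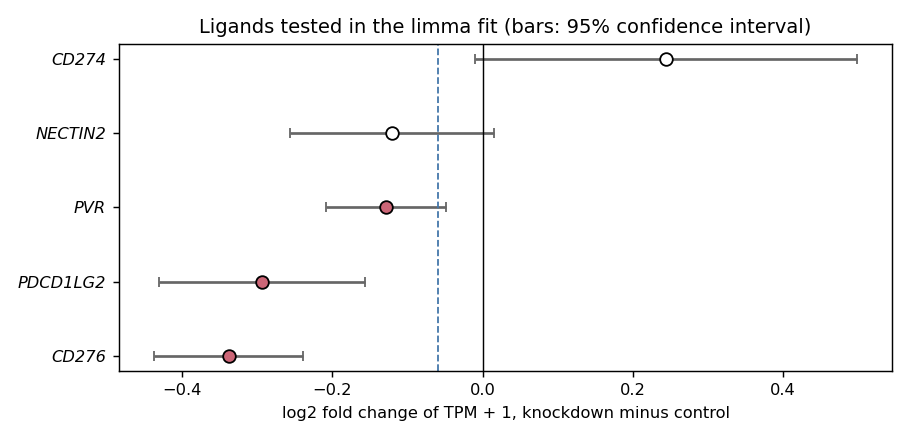
Log2 fold changes of the tested ligands, knockdown-labelled minus control on the log2(TPM + 1) scale, with 95% confidence intervals from limma. Filled points have an adjusted p under 0.05 and the dashed line marks the median of all 13722 tested genes at -0.06. The intervals of PDCD1LG2 and CD276 lie wholly below that line, while the interval of PVR, from -0.21 to -0.05, reaches it.

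PVR (CD155) and NECTIN2 (CD112) are adhesion molecules of the nectin family that TIGIT, CD226 and, for NECTIN2, PVRIG recognise. Both lie on chromosome 19, PVR from 44643798 to 44663583 and NECTIN2 from 44846175 to 44889228. PVR was at 45.12, 43.80 and 46.72 TPM in the controls and at 41.46, 41.27 and 41.06 TPM in the knockdown-labelled libraries. The groups did not overlap, and the knockdown-labelled values were close together. The mean fell from 45.2 ± 1.46 to 41.3 ± 0.20 TPM (log2 fold change -0.13, SE 0.0334, limma adjusted p = 0.0257). This call was lost without control 1, control 3 or any 1 of the knockdown-labelled libraries (limma adjusted p between 0.0578 and 0.0716), and after scaling by the median of ratios the log2 fold change was -0.06 (limma adjusted p = 0.203).

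NECTIN2 was at 33.53, 35.18 and 34.24 TPM in the controls and at 28.95, 33.06 and 32.56 TPM in the knockdown-labelled libraries. Knockdown library 1 was the lowest, and the other knockdown-labelled values lay just below the controls. The means were 34.3 ± 0.828 and 31.5 ± 2.24 TPM, and the log2 fold change of -0.12 (95% confidence interval -0.26 to 0.01) did not pass (limma adjusted p = 0.144). It was -0.06 without knockdown 1 and -0.05 after scaling by the median of ratios. The ratio of PVR to NECTIN2 was 1.32 ± 0.0642 in the controls and 1.31 ± 0.103 in the knockdown-labelled libraries, with overlap. Their sum was 79.5 ± 1.25 TPM in the controls, against 72.8 ± 2.09 TPM in the knockdown-labelled libraries, without overlap. The difference of -6.74 TPM was -3.04 TPM after scaling by the median of ratios. An antisense gene overlapping PVR was at 0.08 to 0.61 TPM and one overlapping NECTIN2 at 0, and whether the counting used strand is not given in the sources used here.

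ICOSLG encodes the ligand of ICOS, a costimulatory receptor of activated T cells, and lies on the minus strand of chromosome 21 from 44217014 to 44240966. It was at 1.03, 1.16 and 0.90 TPM in the controls and at 0.43, 0.44 and 0.38 TPM in the knockdown-labelled libraries. The lowest control was above the highest knockdown-labelled value by a wide margin. The means were 1.03 ± 0.13 and 0.417 ± 0.0322 TPM (exact two-sided permutation p = 0.1, the smallest that 3 against 3 libraries allow). With the limit on low values set at 0.1 TPM in place of 1, ICOSLG passed with a log2 fold change of -0.52 (SE 0.0946, 95% confidence interval -0.75 to -0.29, limma adjusted p = 0.0101). In that fit of 20229 genes 15.2% were called lower.

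ICOSLG shares part of its sequence with another gene on the same chromosome. Of the 50-base words in its annotated transcripts 33.7% also occur in ENSG00000277117, on chromosome 21 from 5022493 to 5040666, so the division of reads between them is uncertain. That partial copy was at 1.87, 1.23 and 1.42 TPM in the controls and at 0.84, 0.80 and 0.59 TPM in the knockdown-labelled libraries. Its values in the knockdown-labelled libraries were below every control. Only its control mean was over 1 TPM, so it reached the limit for testing through the controls and no test of it is given. Reads divided between them stay within the sum of both genes. TPM is corrected for length, however, so the summed TPM can still shift with the division of reads. That sum was 2.90, 2.39 and 2.32 TPM in the controls, against 1.27, 1.24 and 0.97 TPM in the knockdown-labelled libraries. With the sum in place of ICOSLG the log2 fold change was -0.71 (SE 0.125). The sum was fitted only after the values were seen, so it is a description without a test.

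The ligands of CD28 and CTLA-4, and LGALS9, which encodes a ligand of TIM-3, were at the bottom of the scale. CD80, on chromosome 3 from 119524293 to 119559602, was at 0.08, 0.04 and 0.04 TPM in the controls and at 0, 0.04 and 0 TPM in the knockdown-labelled libraries (exact two-sided permutation p = 0.3). CD86, on the same chromosome from 122055366 to 122121139, was listed at 0 in all 6. LGALS9 (galectin-9), on chromosome 17 from 27629798 to 27649560, was at 0 in the controls and at 0, 0.04 and 0.14 TPM in the knockdown-labelled libraries (exact two-sided permutation p = 0.4). Its copies LGALS9B and LGALS9C were at 0.04 TPM or less. Values with 2 decimals this close to 0 cannot show a difference between the groups. Of the ligands of CD28 and ICOS, ICOSLG was thus the one to reach 1 TPM in any library.

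The lists of related genes described next are given by their counts, beside the 24.0% of all tested genes called lower and 12.1% called higher. Those whose log2 fold change was under 0.5 in size are named after their values were seen, other than JAK2 and IRF1. Among 14 further ligands of immune cell receptors 7 were tested, of which 2 fell and 2 rose, and the median log2 fold change was -0.01. TNFRSF14 (HVEM), the ligand of BTLA, fell from 7.42, 6.42 and 8.03 TPM to 3.86, 4.53 and 4.30 TPM, with a log2 fold change of -0.66 (SE 0.0964, limma adjusted p = 0.00270). NECTIN3, a nectin that binds PVR and NECTIN2, fell by 0.36 on the log2 scale. LGALS3 (galectin-3) and CD47, the signal that restrains phagocytes, rose by 0.31 and 0.20, and the call of CD47 was lost without control 1, control 3, knockdown 2 or knockdown 3 (limma adjusted p between 0.0771 and 0.0797). The other 7 of the 14 were at 0.56 TPM or less in every library. CD200, a ligand that restrains myeloid cells, was the highest of these and is named after its values were seen. It was at 0.45, 0.38 and 0.56 TPM in the controls and at 0.04, 0 and 0 TPM in the knockdown-labelled libraries, without overlap (exact two-sided permutation p = 0.1, the smallest possible here).

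NK cells are also switched on by ligands, among them those of the receptor NKG2D. Of 9 genes for ligands of NKG2D and NKp30, 8 were tested, 3 fell and 0 rose in the limma test (0 at an unadjusted p under 0.05 as well). The median log2 fold change was -0.23. All 8 were negative, also after both scalings, beside 60.2% of all tested genes (49.6% after the median of ratios and 49.8% after quantile normalization). Either scaling left 2 called lower and 0 higher. ULBP2 was then close to 0, at -0.02 after the median of ratios and -0.01 after quantile normalization. ULBP1, ULBP2, ULBP3, RAET1E and RAET1G lie close together on chromosome 6, so the 8 signs may not be independent. MICB, a stress-induced NKG2D ligand, was at 13.19, 13.78 and 12.79 TPM in the controls and at 6.76, 7.63 and 7.58 TPM in the knockdown-labelled libraries. Its groups were far apart, with a log2 fold change of -0.78 (SE 0.0630, limma adjusted p = 0.000261). Its relative MICA fell from 57.7 ± 1.02 to 43.2 ± 1.36 TPM (log2 fold change -0.41, limma adjusted p = 0.000289). ULBP1, the other gene that fell, was just past the threshold (limma adjusted p = 0.0488). Its call was lost whichever library was left out (limma adjusted p 0.0604 to 0.131) and after both scalings. It passed in 4 of 16 alternatives.

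The receptors themselves were near 0. All 12 receptor genes searched, among them PDCD1, CTLA4, CD28, ICOS and TIGIT, were below 1 TPM in every library, with a highest value of 0.58 TPM. Leukocyte markers bear on whether other cells were present. Of the 13 markers 3 were listed at 0 in every library, among them CD3E of T cells and TYROBP of myeloid and NK cells. CD2 of T and NK cells was at 0.18 to 0.37 TPM, and FCER1G of myeloid and NK cells at 0.15 to 0.99 TPM. In every library 11 of the 13 were below 1 TPM. CSF1R, the receptor for macrophage colony-stimulating factor, rose from 5.44 ± 0.168 to 9.17 ± 0.0351 TPM (log2 fold change 0.66, limma adjusted p = 0.000259), and ITGAX fell by 0.36 on the log2 scale, a call lost whichever library was left out (limma adjusted p 0.0625 to 0.111). The list summed to between 8.75 and 9.66 TPM in the controls and between 11.42 and 12.46 TPM in the knockdown-labelled libraries. Without CSF1R and ITGAX the sums were 1.29 ± 0.568 and 1.03 ± 0.375 TPM, and the groups overlapped.

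A list of genes of interferon and JAK-STAT signalling did not move one way. All 13 of the list were tested, 4 fell, 3 rose and 6 did not pass, with a median log2 fold change of 0.04. Scaling by the median of ratios gave 3 lower and 4 higher, and quantile normalization 3 lower and 5 higher. The chains of the interferon-gamma receptor went in opposite directions. IFNGR1, the ligand-binding chain, fell from 17.2 ± 1.45 to 10.2 ± 0.928 TPM (log2 fold change -0.71, limma adjusted p = 0.00132). IFNGR2, the signalling chain, rose from 8.08 ± 0.180 to 12.2 ± 0.399 TPM (log2 fold change 0.54, limma adjusted p = 0.000414). Neither pair of groups overlapped.

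Of the other genes in this list, JAK1 and STAT2 fell by 0.21 and 0.36 on the log2 scale, and STAT3 and IRF9 rose by 0.28 and 0.23. The call of IRF9 was lost without any 1 library other than control 1 (limma adjusted p 0.0544 to 0.123). IRF1, the factor that binds the ISRE of CD274, was at 19.36, 19.94 and 30.71 TPM in the controls and at 22.93, 42.15 and 39.64 TPM in the knockdown-labelled libraries. Its groups overlapped, since control 3 was above knockdown 1. The log2 fold change of 0.54 had an SE of 0.270 and a 95% confidence interval from -0.10 to 1.19 (limma adjusted p = 0.166). Without knockdown 1 IRF1 passed (limma adjusted p = 0.0329). This was 1 of 16 alternatives, and it passed in no other, both scalings included.

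A last list covered 18 genes that act on the PD-L1 protein after it is made, through glycosylation, palmitoylation, trafficking and breakdown. Of the 17 tested 4 fell and 2 rose, and the median log2 fold change was -0.01. This balance turned with the scaling, with 2 lower and 4 higher after the median of ratios and 2 lower and 3 higher after quantile normalization. CMTM6, which keeps PD-L1 at the cell surface, fell from 35.8 ± 0.562 to 30.9 ± 0.683 TPM (log2 fold change -0.20, limma adjusted p = 0.00408). STT3A, a catalytic subunit of the glycosylation enzyme, fell by 0.40 on the log2 scale, while STUB1, a ubiquitin ligase, rose by 0.33. The deubiquitinase genes USP22 and OTUB1 fell by 0.11 and 0.09. Both calls were lost after scaling by the median of ratios and after quantile normalization, that of OTUB1 also whichever library was left out (limma adjusted p 0.0511 to 0.124), and that of USP22 without any 1 library other than knockdown 2 (0.0809 to 0.0919). No protein was measured, so these values say nothing of the amount of PD-L1 on the cells.

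**Figure D5:**
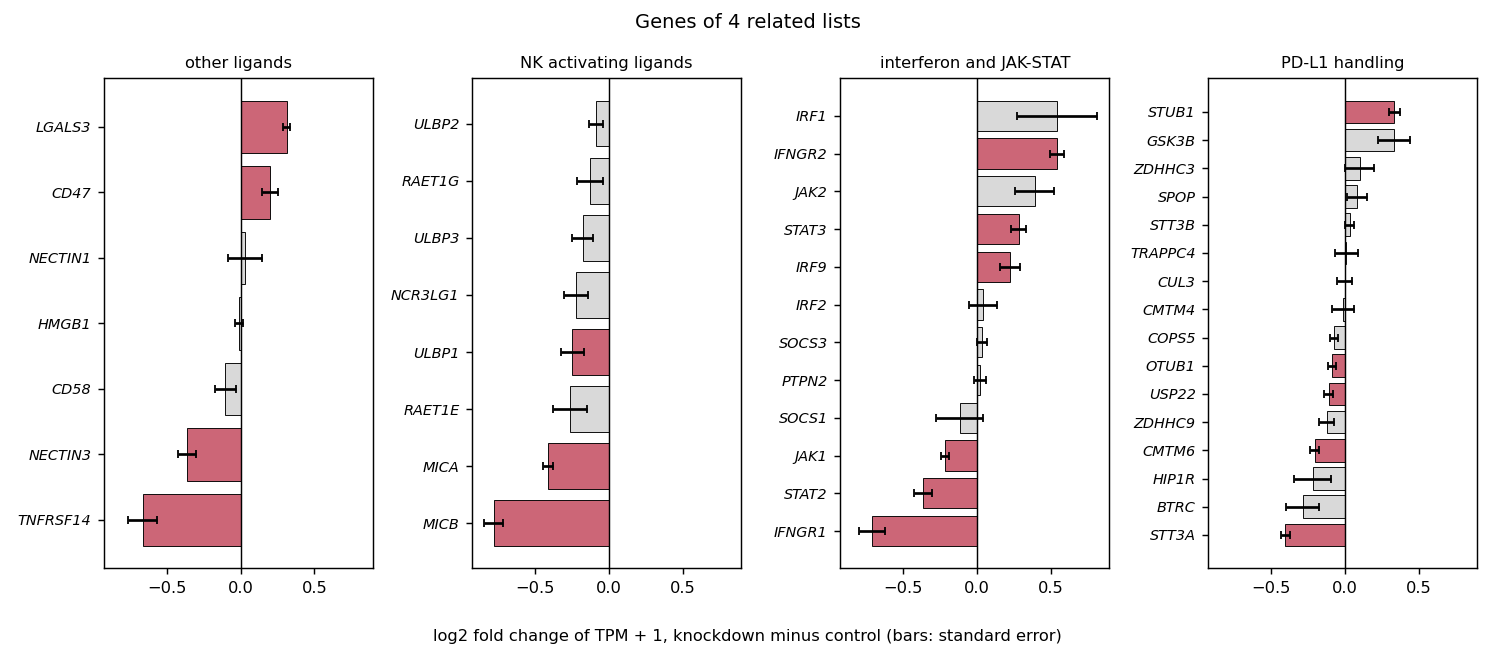
Log2 fold changes, knockdown-labelled minus control on the log2(TPM + 1) scale, of genes in 4 lists (further ligands, NK activating ligands, interferon and JAK-STAT genes, and genes of PD-L1 handling). Bars are the limma estimates, whiskers the SE, and coloured bars have an adjusted p under 0.05. All 8 NK activating ligands lie below 0, and the other lists hold coloured bars on both sides.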

How the data were processed

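RNA of 3 negative control and 3 knockdown-labelled U87-MG libraries was sequenced in read pairs. The submitters' processing notes name fastp, RSEM and the genome build GRCh38.p13, without versions. The deposited values are TPM per gene, written with 2 decimals, in 1 table of 61731 rows, and 0 of its columns were left without a sample. Gene coordinates were taken from GENCODE 29 (GRCh38). The study's methods name TRIzol and a TruSeq kit, whereas the labels name an RNeasy and a SMARTer kit.

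TPM is a share of each library and keeps no depth, so no test for counts and no counting error was given. The 13722 genes averaging 1 TPM or more were tested on log2(TPM + 1). The linear model came from limma (version 3.58.1, under R version 4.3.3), its eBayes step allowed for a mean-variance trend, and p-values were adjusted over all these genes by the method of Benjamini and Hochberg. This replaced the t-test that the study states for comparisons of groups. Single values were compared by an exact two-sided permutation test. The procedure was tested on simulated data.

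The ligands, the lists of related genes and the tests were chosen with earlier results of these data known. Beside the ligands, genes were named from the lists where the adjusted p was under 0.05 and the log2 fold change 0.5 or more in size, together with JAK2, IRF1, the neighbours of the PD-1 ligands and genes that share sequence with a ligand. Genes called with a smaller change in the lists of related genes, and CD200, were named after their values were seen. Values of some genes in the lists are not reported here, although the counts include them. The lists also held 5 markers of U87-MG, all tested, of which 3 fell (FN1 among them, by 0.57 on the log2 scale) and 2 rose. Alternatives varied the pseudocount, the limit on low values, the scaling, the variance trend, the threshold and the libraries included, and added the replicate number as a block.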

Additional observations from a re-analysis of the deposited data

How the results depend on the processing

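CD276 and PDCD1LG2 passed the limma test in all 16 alternatives, with log2 fold changes of -0.38 to -0.27 and -0.32 to -0.23, and CD274 (0.13 to 0.32) and NECTIN2 (-0.16 to -0.04) passed in none. PVR lost its call in 8 of 16, with -0.0599 after scaling by the median of ratios, -0.0367 after quantile normalization (limma adjusted p = 0.203 and 0.435), and -0.15 to -0.11 with each library left out in turn. With the replicate number as a block PVR was at -0.13 and also lost its call (limma adjusted p = 0.0677), and no other ligand's call changed under the replicate block. Libraries with the same number did not deviate together (correlations -0.02, 0.03 and 0.03). These values cannot show whether such libraries were prepared as pairs. The number of ligands called lower was 2 with the block, 2 to 4 elsewhere and 0 when a log2 fold change of 1 or more in size was required. ICOSLG passed at -0.52 with no limit and with the limit of 0.1 TPM. Summed with its copy ICOSLG was at -0.71, an alternative chosen after the data were seen and given without a test. The fall in the sum of PVR and NECTIN2, -6.74 TPM, was -3.04 TPM after scaling by the median of ratios. Over the other lists 13 calls were lower and 7 higher, but 9 lower and 10 higher after either scaling, so that the excess of lower calls was lost, and the other alternatives gave 9 to 14 lower and 5 to 8 higher. The depth is unknown, so ligands close to 0 TPM cannot be compared between the groups.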
